A study of Sus scrofa with 12 samples.

Results

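PLXDC1, C1QTNF3, INMT and FAM180A are 4 of the 22861 genes measured in interstitial cells of the pig aortic valve in culture. They were selected on their RNA levels along the calcification course, which ended higher than they began, so those levels are given as a description without a test. The 4 were found by symbol in the deposited gene table, except C1QTNF3, whose row carries no symbol and was matched through its Ensembl gene ID. All 4 were among the 13046 genes with an RPKM of at least 1 in at least 3 of the 12 libraries. RPKM is the number of reads scaled to exon length and to the library total. INMT reached an RPKM of 1 in 11 libraries and would not have passed from Stage 1 alone, whereas the other 3 genes reached it in all 12.

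Valve interstitial cells are the fibroblast-like cells that make and maintain the matrix of the heart valve leaflet, and in culture on a stiff surface they can turn towards a matrix-depositing, calcifying state. Cells from the porcine aortic valve were grown on glass, the calcification stimulus, in DMEM for up to 12 days according to when each stage was seen. The groups were Stage 1 (day 5), Stage 2 (day 8), Stage 3 with KPT and Stage 3 with the solvent DMSO, each with 3 replicates, and KPT or DMSO was given at Stage 3. The labels call the replicates biological but do not say whether they came from separate animals, so p-values measure the spread between these samples, which may be technical. The sources used here do not give the dose and duration of KPT, its full name or the day of each Stage 3 library. KPT code names belong to compounds that inhibit XPO1, the receptor that carries proteins out of the nucleus. Glass was common to all groups, and no group without it, and no Stage 3 group without both DMSO and KPT, was analysed here.

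The 4 genes have different known roles. PLXDC1, plexin domain containing 1, encodes a membrane protein first described in the endothelium of human tumours, where it is also called tumour endothelial marker 7, and it is known as a receptor for pigment epithelium-derived factor. C1QTNF3 encodes a secreted member of the C1q and tumour necrosis factor related protein family, which is made by fat and connective tissue cells and was described in rodent growth cartilage. INMT, indolethylamine N-methyltransferase, is an enzyme that transfers a methyl group from S-adenosylmethionine to tryptamine and related small amines. FAM180A is named for sequence similarity only, and no role is stated for it here.

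Library totals recovered from the RPKM values were 13188023 to 24724019. Across genes, 2 replicates of the same group had a Pearson correlation of 0.985 to 0.994, and no pair was as close as counting alone would make it. All 10 of 10 listed fibroblast markers were tested, which alone does not fix the identity of the cells. Their summed RPKM was 18164 to 19237 with KPT and 30778 to 32747 with DMSO. The markers did not all follow the sum. DCN averaged 465 RPKM with KPT and 366 with DMSO, LUM 498 and 398, and PDGFRA 66.9 and 65.1. The other listed markers had lower means with KPT than with DMSO. The deposited scaling left the median gene 0.15 higher on the log2 scale at Stage 3+DMSO than at Stage 2. Of the calls in that comparison 74.9% were higher as deposited and 50.8% after rescaling each library by its median ratio, for Stage 3+KPT against Stage 2 the shares were 63.0% and 50.2%, and for Stage 3+DMSO against Stage 1 they were 63.8% and 48.4%. No direction of any of the 4 genes flipped under either rescaling tried.

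The course took a different shape for each gene. PLXDC1 rose at both steps, and its larger log2 step was the one to Stage 2. C1QTNF3 rose at Stage 2 and was then lower at Stage 3+DMSO. INMT rose at Stage 2 and overlapped between Stage 2 and Stage 3+DMSO. FAM180A was lower at Stage 2 than at Stage 1 and rose at Stage 3+DMSO. A steady rise with stage was thus seen for PLXDC1 and not for the other 3, although all 4 were higher at Stage 3+DMSO than at Stage 1 in 9 of 9 pairs of libraries. The groups of each gene did not overlap in any pair of neighbouring stages except INMT at Stage 3+DMSO and Stage 2. As background to these counts, from which nothing is read since the course chose the genes, 52.5% of tested genes did not overlap between Stage 2 and Stage 1, 51.1% between Stage 3+DMSO and Stage 2 and 59.0% between Stage 3+DMSO and Stage 1.

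KPT separated the 4 genes into a pair that was lower and a pair that was higher than with DMSO. PLXDC1 and C1QTNF3 were lower with KPT, and INMT and FAM180A were higher. All 4 passed the limma test of Stage 3+KPT against Stage 3+DMSO at an adjusted p under 0.05, a threshold that 60.0% of tested genes also passed, 30.5% higher and 29.5% lower, so a pass alone did not set these genes apart. Their KPT and DMSO libraries did not overlap, as was the case for 65.2% of tested genes. The DMSO libraries in this test had been used in choosing the genes, and genes chosen for a high level there can appear lower in any other group. In bulk RNA, fewer cells that express a gene and less of its RNA per cell cannot be told apart.

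**Figure D1:**
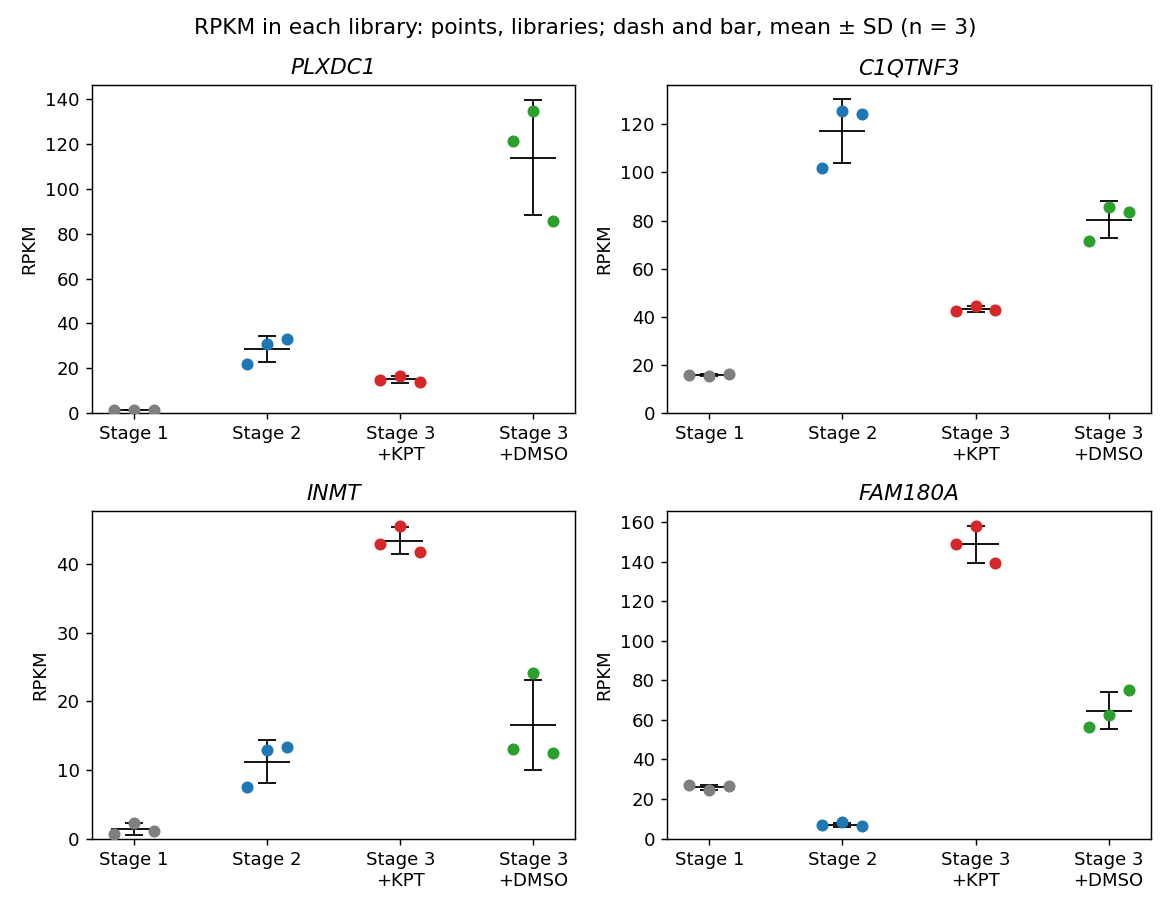
RPKM (y axis, linear from 0) of PLXDC1, C1QTNF3, INMT and FAM180A in the 12 libraries, by group (x axis). Points are libraries, dashes and bars are the mean and SD of 3; the 3 KPT libraries of PLXDC1 lie between 13.7 and 16.4 and all 3 KPT libraries of FAM180A lie at 139 or above.

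PLXDC1 lies on chromosome 12 at 23526394 to 23586953 on the plus strand, as the deposited tables give it (sources used here do not name the genome build), with 12 exons and a union exon length of 1419 bases. Its RPKM was 1.50, 1.32 and 1.22 in the Stage 1 libraries, 21.8, 30.6 and 33.1 in the Stage 2 libraries and 121, 135 and 85.5 in the Stage 3+DMSO libraries. Every library of a later stage was above every library of the earlier ones, and the lowest DMSO library was still well above the highest Stage 2 library. The group means were 1.35 ± 0.138, 28.5 ± 5.92 and 114 ± 25.6 RPKM (SD, n = 3 each) for Stage 1, Stage 2 and Stage 3+DMSO. The mean was 21.2 times as high at Stage 2 as at Stage 1, and 3.997 times as high at Stage 3+DMSO as at Stage 2. On the scale of log2(RPKM + 1) the steps were 3.63 and 1.96, so 65.0% of the log2 rise came at Stage 2, while most of the gain in RPKM came at Stage 3. From Stage 1 to Stage 3+DMSO the rise was 5.59 on the log2 scale, the largest of all 13046 tested genes. The step to Stage 2 ranked 3rd and the step to Stage 3+DMSO ranked 31st among the same genes. At Stage 1 PLXDC1 was near the bottom of the tested genes, with 8.03% of them below it, and at Stage 3+DMSO 89.3% were below it. The Stage 1 level rests on 101 reads over 3 libraries, against 2238 at Stage 2 and 9814 at Stage 3+DMSO.

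With KPT, PLXDC1 was below its Stage 2 level. Its RPKM was 14.6, 16.4 and 13.7 in the KPT libraries, against 121, 135 and 85.5 in the DMSO libraries. The KPT libraries were close together and lay far below every DMSO library, below every Stage 2 library and above every Stage 1 library. The mean was 14.9 ± 1.40 RPKM with KPT (SD, n = 3), which is 0.131 of the DMSO mean. Against DMSO the log2 difference was -2.83 (SE 0.17, adjusted p = 1.98e-08, limma), the 84th largest fall among the tested genes. Against Stage 2 it was -0.87 (SE 0.17, adjusted p = 0.000554, limma), where 67.5% of tested genes passed the threshold and 70.1% did not overlap. Against Stage 1 it was 2.76 (SE 0.17, adjusted p = 1.81e-08, limma), where 66.8% passed and 73.4% did not overlap. The stage libraries of these comparisons were also used in the choice of genes. On the log2 scale 49.3% of the rise from Stage 1 to DMSO was present with KPT, and in mean RPKM 12.0%. The order of the 4 groups was Stage 1, Stage 3+KPT, Stage 2 and Stage 3+DMSO from low to high, with no overlap between neighbours.

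The listed genes related to PLXDC1 moved in mixed directions. Of the listed genes, which cover its relative PLXDC2, its known partners and other tumour endothelial markers, 5 were tested, including ADGRA2, which the list also holds under its older symbol GPR124. PLXDC2, SERPINF1, CTTN and ARHGEF17 were not analysed here. With KPT against DMSO, 3 of the 5 were lower and 1 was higher (limma), beside 29.5% and 30.5% of all tested genes, with a median log2 difference of -0.82 against 0.02 over all tested genes. CD248, a surface glycoprotein of stromal cells and pericytes, averaged 2.11 ± 0.245 RPKM with KPT and 8.52 ± 1.86 with DMSO (SD, n = 3 each), a log2 difference of -1.60 (SE 0.13, adjusted p = 4.69e-07, limma). TNS3, a focal adhesion protein, averaged 1.63 ± 0.198 RPKM with KPT and 4.39 ± 0.799 with DMSO, a log2 difference of -1.03 (adjusted p = 3.18e-05, limma). ANTXR1, a collagen-binding receptor also known as tumour endothelial marker 8, went the other way, with 625 ± 4.40 RPKM with KPT and 452 ± 71.7 with DMSO (log2 difference 0.48, adjusted p = 0.000593, limma). NID1, the basement membrane protein nidogen that binds PLXDC1, averaged 115 ± 4.98 RPKM with KPT and 128 ± 42.8 with DMSO and did not pass (adjusted p = 0.594, limma). At Stage 2 against Stage 1, 3 of the 5 were higher and 1 was lower, where 16.3% and 24.4% of tested genes were. At Stage 3+DMSO against Stage 2, 2 were higher and 1 lower, where 33.0% and 11.1% of tested genes were.

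Endothelial cells are a known source of PLXDC1, and their markers were measured beside it. Of 10 endothelial markers 9 had a row and 5 were tested, and the summed RPKM of the list was 34.8 to 40.6 with KPT and 68.9 to 86.4 with DMSO. It was 63.0 to 69.8 at Stage 2 and 64.2 to 67.5 at Stage 1. Most of that sum was ERG, a transcription factor of endothelial and cartilage cells, at 26.6 ± 1.03 RPKM with KPT and 61.0 ± 7.42 with DMSO. The defining genes KDR and VWF stayed below 0.1 RPKM in every group mean, and PECAM1 averaged 5.67 ± 0.794 RPKM with KPT and 8.00 ± 1.17 with DMSO. TIE1 averaged 2.06 ± 0.668 RPKM with KPT and 4.13 ± 1.17 with DMSO. The other tested markers had higher means with KPT, EMCN at 1.36 ± 0.914 RPKM against 0.568 ± 0.588 and ESAM at 1.38 ± 0.477 against 1.28 ± 0.267. Of the 6 pericyte markers 4 were tested, with a summed RPKM of 148 to 170 with KPT and 113 to 149 with DMSO, and the means of the 4 differed in direction. RGS5 averaged 52.9 RPKM with KPT and 3.27 with DMSO, and NOTCH3 averaged 53.3 with KPT and 20.2 with DMSO. CSPG4 averaged 49.4 RPKM with KPT and 109.6 with DMSO, and KCNJ8 averaged 1.45 with KPT and 2.06 with DMSO. The part of endothelial and pericyte markers in the PLXDC1 results was not tested.

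C1QTNF3 lies on chromosome 16 at 20792525 to 20819543 on the minus strand, with 6 exons and a union exon length of 3036 bases. Its RPKM was 15.8, 15.5 and 16.3 at Stage 1, 102, 126 and 124 at Stage 2 and 71.5, 85.7 and 83.7 at Stage 3+DMSO. Stage 2 was the highest group, every DMSO library lay below every Stage 2 library, and both were far above Stage 1. The means were 15.9 ± 0.420, 117 ± 13.3 and 80.3 ± 7.66 RPKM (SD, n = 3 each) in that order. The Stage 2 mean was 7.39 times the Stage 1 mean, and the DMSO mean was 0.684 of the Stage 2 mean. On the log2 scale the steps were 2.80 and -0.54, which left a difference of 2.26 between Stage 3+DMSO and Stage 1. The whole rise of C1QTNF3 therefore came at Stage 2, and that step ranked 6th of 13046 tested genes.

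KPT kept part of the rise of C1QTNF3. Its RPKM was 42.2, 44.7 and 42.9 with KPT, against 71.5, 85.7 and 83.7 with DMSO. The KPT libraries were nearly equal to each other and lay between Stage 1 and DMSO without overlap with either. The mean was 43.2 ± 1.27 RPKM with KPT, 0.538 of the DMSO mean. The log2 difference was -0.87 against DMSO (SE 0.09, adjusted p = 2.71e-06, limma), -1.41 against Stage 2 (adjusted p = 2.49e-08, limma) and 1.39 against Stage 1 (adjusted p = 2.41e-08, limma). Of all tested genes 67.5% passed against Stage 2 and 66.8% against Stage 1. C1QTNF3 was chosen on its stage libraries, so the p-values against stages are not read further. On the log2 scale 61.4% of the difference between DMSO and Stage 1 was present with KPT, and in mean RPKM 42.5%. That difference, 2.26 on the log2 scale, is smaller than the step of 2.80 from Stage 1 to Stage 2, above which KPT did not reach. Its groups ran Stage 1, Stage 3+KPT, Stage 3+DMSO and Stage 2 from low to high.

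Relatives of C1QTNF3 with a C1q domain were mostly lower with KPT as well. Of 31 listed genes, which include the C1QTNF, cerebellin, emilin and short-chain collagen genes, 25 had a row and 13 were tested. With KPT against DMSO, 8 of the 13 were lower, 1 was higher and 4 did not pass (limma), beside 29.5% lower and 30.5% higher of all tested genes, and their median log2 difference was -0.91 against 0.02 over all tested genes. EMILIN1, an elastic fibre glycoprotein, averaged 63.4 ± 4.49 RPKM with KPT and 246 ± 26.8 with DMSO, a log2 difference of -1.94 (SE 0.08, adjusted p = 6.70e-10, limma). The exception, CBLN4, a secreted cerebellin, averaged 6.45 ± 0.602 RPKM with KPT and 0.0662 ± 0.0345 with DMSO, a log2 difference of 2.80 (adjusted p = 1.44e-09, limma). CBLN4 averaged at most 0.671 RPKM in the groups without KPT. It met the filter only through its KPT libraries, so its call is not read further. At Stage 2 against Stage 1, 6 of the 13 were higher and 2 were lower, beside 16.3% and 24.4% of all tested genes. At Stage 3+DMSO against Stage 2, 2 were higher and 4 were lower, beside 33.0% and 11.1%.

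Among the C1QTNF genes themselves, C1QTNF6 followed the course of C1QTNF3 most closely. It averaged 72.2 ± 0.699 RPKM at Stage 1, 194 ± 5.49 at Stage 2 and 147 ± 7.50 at Stage 3+DMSO, so it too peaked at Stage 2. With KPT it averaged 117 ± 5.28 RPKM, a log2 difference from DMSO of -0.33 (SE 0.06, adjusted p = 0.000210, limma). C1QTNF2 and C1QTNF5 were also lower with KPT than with DMSO, by log2 differences of -1.27 (adjusted p = 9.17e-09, limma) and -0.91 (adjusted p = 7.23e-06, limma). C1QTNF2 also peaked at Stage 2, where its libraries were at 77.7 to 82.4 RPKM, and C1QTNF4 had its highest mean there, 1.65 ± 0.963 RPKM, with groups that overlapped. C1QTNF5, unlike C1QTNF3, was highest at Stage 3+DMSO, with libraries at 308 to 416 RPKM against 224 to 239 at Stage 2. C1QTNF7 reached 1.96 to 3.32 RPKM with DMSO and stayed at or under 0.173 with KPT, and without its DMSO libraries it would not have met the filter. C1QTNF4 was low throughout and did not pass against DMSO (adjusted p = 0.0771, limma).

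**Figure D2:**
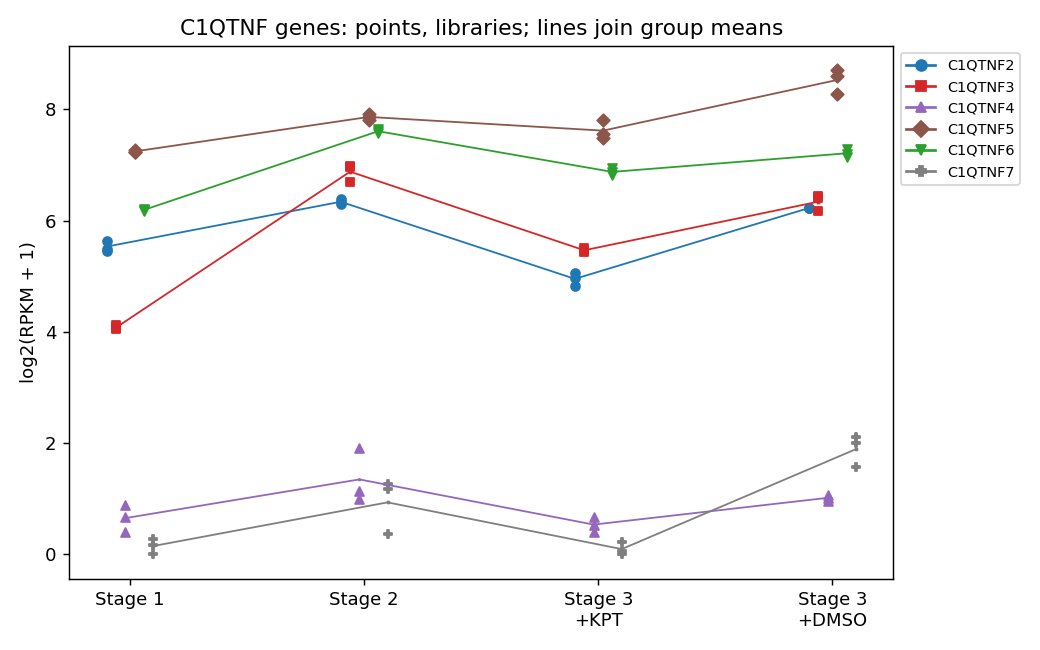
Level of the 6 tested C1QTNF genes as log2(RPKM + 1) (y axis) by group (x axis); points are libraries and lines join the means of 3. The libraries of C1QTNF2, C1QTNF3 and C1QTNF6 are highest at Stage 2, and the KPT libraries of C1QTNF2, C1QTNF3, C1QTNF5, C1QTNF6 and C1QTNF7 lie below their DMSO libraries.

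Fat and cartilage cells, in which C1QTNF3 is also known, were checked by their markers. Of 6 adipocyte markers 4 had a row and 2 were tested, with a summed RPKM of 2.40 to 3.02 with KPT and 3.55 to 4.74 with DMSO, and PLIN1 was below 0.1 RPKM in every group mean. Of 9 chondrocyte markers 8 had a row and 5 were tested. Their summed RPKM was 138 to 142 with KPT and 445 to 586 with DMSO, and 387 to 412 at Stage 2 and 234 to 264 at Stage 1. Nearly all of it was the fibrillar collagen COL11A1, at 126 RPKM with KPT and 490.1 with DMSO, while ACAN, the cartilage proteoglycan aggrecan, averaged 0.366 RPKM with KPT and 8.41 with DMSO. HAPLN1, which links aggrecan to hyaluronan, went the other way, at 13.1 ± 0.998 RPKM with KPT and 7.45 ± 0.816 with DMSO. This sum was highest at Stage 3+DMSO, whereas C1QTNF3 was highest at Stage 2, and its part in the C1QTNF3 result was not tested.

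INMT lies on chromosome 18 at 46637157 to 46641921 on the plus strand, with 3 exons and a union exon length of 1006 bases. Its RPKM was 0.603, 2.32 and 1.10 at Stage 1, 7.57, 12.8 and 13.3 at Stage 2 and 13.0, 24.1 and 12.5 at Stage 3+DMSO. Stage 1 was below all other libraries, but Stage 2 and DMSO overlapped, and DMSO replicate 2 alone stood above both of the other DMSO libraries and all of Stage 2. The means were 1.34 ± 0.883, 11.2 ± 3.18 and 16.6 ± 6.54 RPKM (SD, n = 3 each) in that order. The mean was 8.37 times as high at Stage 2 as at Stage 1, a log2 step of 2.41 that ranked 7th of the tested genes. The second step was 0.50 on the log2 scale, with the DMSO library higher in 6 of 9 pairs. Thus 82.9% of the log2 rise came at Stage 2, and the further difference at Stage 3+DMSO was smaller than the spread of the DMSO libraries. Counts were low at Stage 1, with 77 reads over 3 libraries, against 630 at Stage 2 and 1012 at Stage 3+DMSO.

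KPT more than kept the rise of INMT. Its RPKM was 43.0, 45.5 and 41.7 with KPT, against 13.0, 24.1 and 12.5 with DMSO. The 3 KPT libraries were the highest of the 12 and were tighter than the DMSO libraries. The mean was 43.4 ± 1.93 RPKM with KPT, and the log2 difference was 1.40 against DMSO (SE 0.28, adjusted p = 0.000951, limma). Without DMSO replicate 2 that difference was 1.69, the highest of the values obtained by leaving out a library in turn, which went down to 1.24. Against Stage 2 the log2 difference was 1.90 (adjusted p = 6.73e-05, limma) and against Stage 1 it was 4.31 (SE 0.28, adjusted p = 3.38e-08, limma), the 27th largest rise among the tested genes. Of all tested genes 67.5% passed against Stage 2 and 66.8% against Stage 1. INMT was chosen on its stage libraries, which were low at Stage 1, so the p-values and rank against stages are not read further. The level with KPT stood at 148.0% of the log2 rise from Stage 1 to DMSO. From low to high the groups ran Stage 1, Stage 2, Stage 3+DMSO and Stage 3+KPT, where Stage 2 and Stage 3+DMSO could not be separated.

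Other small-molecule methyltransferases and genes of the methyl donor cycle were compared with INMT. Of 21 listed genes 18 had a row and 14 were tested, and NNMT and PNMT, the nicotinamide and phenylethanolamine methyltransferases, were listed at 0 in all libraries. With KPT against DMSO, 4 of the 14 were higher, 1 was lower and 9 did not pass (limma), with a median log2 difference of 0.18. The share that was higher was close to the 30.5% of all tested genes, and 29.5% of all tested genes were lower. TPMT, the thiopurine methyltransferase, averaged 11.7 ± 1.95 RPKM with KPT and 6.33 ± 0.402 with DMSO, a log2 difference of 0.78 (SE 0.12, adjusted p = 0.000134, limma). GAMT, which makes creatine, averaged 17.0 ± 3.15 RPKM with KPT and 27.0 ± 0.771 with DMSO, a log2 difference of -0.65 (adjusted p = 0.00192, limma). At Stage 2 against Stage 1 the list split, with 4 higher and 4 lower, beside 16.3% higher and 24.4% lower of all tested genes. HNMT, the histamine methyltransferase, averaged 23.8 ± 7.25 RPKM at Stage 2 and 8.72 ± 0.345 at Stage 1, a log2 difference of 1.31 (adjusted p = 7.73e-05, limma). MAT2A, which makes S-adenosylmethionine, the methyl donor of INMT, fell to 178 ± 10.4 RPKM at Stage 2, against 409 ± 8.37 at Stage 1 (log2 difference -1.20, adjusted p = 4.11e-06, limma). At Stage 3+DMSO against Stage 2, 9 of the 14 were higher (limma), beside 33.0% of all tested genes, with a median log2 difference of 0.41 against 0.15 over all tested genes.

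Of the 4 genes, INMT alone overlaps another gene of the table. FAM188B runs on the opposite strand, with 42 exons, and shares 7 bases with 1 INMT exon. It was at 2.41 to 3.93 RPKM over all 12 libraries, a narrower range than that of INMT. The counting is not stated to use strand, so reads on the shared bases cannot be assigned with certainty.

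FAM180A lies on chromosome 18 at 14307713 to 14321340 on the plus strand, with 3 exons and a union exon length of 1939 bases. Its RPKM was 27.0, 24.4 and 26.4 at Stage 1, 6.70, 8.24 and 6.30 at Stage 2 and 56.5, 62.6 and 74.9 at Stage 3+DMSO. Stage 2 was the lowest group by a wide margin, and every DMSO library was above every Stage 1 library. The means were 25.9 ± 1.37, 7.08 ± 1.03 and 64.7 ± 9.37 RPKM (SD, n = 3 each) in that order. The Stage 2 mean was 0.273 of the Stage 1 mean, a log2 step of -1.74 that was the 26th largest fall of the tested genes. The DMSO mean was then 9.14 times the Stage 2 mean, a log2 step of 3.02 that was the largest of all 13046 tested genes. The rise of FAM180A therefore came at Stage 3+DMSO, from a level that had first gone below Stage 1, and the net log2 difference between Stage 3+DMSO and Stage 1 was 1.28.

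KPT more than kept this rise as well. The RPKM of FAM180A was 149, 158 and 139 with KPT, against 56.5, 62.6 and 74.9 with DMSO. The KPT libraries were the highest of the 12, and the lowest of them was well above the highest DMSO library. The mean was 149 ± 9.47 RPKM with KPT, 2.30 times the DMSO mean. The log2 difference was 1.20 against DMSO (SE 0.11, adjusted p = 1.07e-06, limma), 4.22 against Stage 2 (SE 0.11, adjusted p = 1.83e-11, limma) and 2.47 against Stage 1 (SE 0.11, adjusted p = 8.50e-10, limma). The difference from Stage 2 was the 29th largest rise among the tested genes. Of all tested genes 67.5% passed against Stage 2 and 66.8% against Stage 1. FAM180A was chosen on its stage libraries, so the p-values and rank against stages are not read further. The level with KPT stood at 193.7% of the log2 rise from Stage 1 to DMSO. From low to high the groups ran Stage 2, Stage 1, Stage 3+DMSO and Stage 3+KPT, with no overlap between neighbours. FAM180B, its relative, had at most 0.664 RPKM in any library and was not tested.

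**Figure D3:**
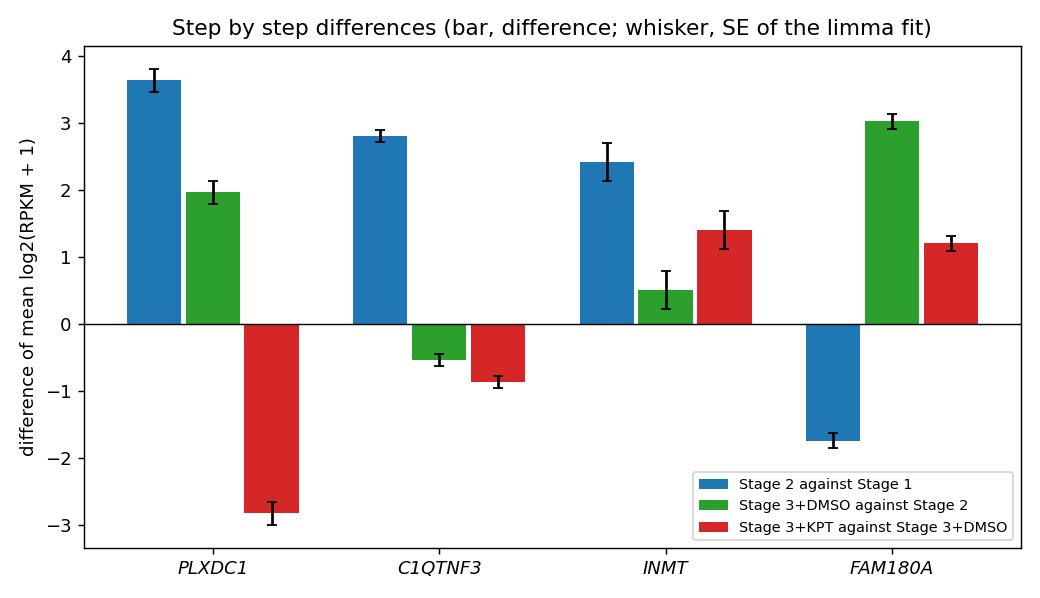
Differences of mean log2(RPKM + 1) (y axis) for PLXDC1, C1QTNF3, INMT and FAM180A (x axis); bars are Stage 2 against Stage 1, Stage 3+DMSO against Stage 2 and Stage 3+KPT against Stage 3+DMSO, and whiskers are the SE of the limma fit. The first step is positive for all but FAM180A (-1.74), the second for all but C1QTNF3 (-0.54), and the KPT difference is negative for PLXDC1 (-2.83) and C1QTNF3 (-0.87). The steps between stages were not tested, since the genes were chosen on them.

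The exons of each gene followed the course of the gene total. For PLXDC1, 11 of the 12 exons were higher in every library at each step and lower in every KPT library than in every DMSO library, and the last exon, 26 bases long, had no read in any library. All 6 exons of C1QTNF3 were higher at Stage 2 than at Stage 1, lower at Stage 3+DMSO than at Stage 2 and lower with KPT than with DMSO. All 3 exons of INMT were higher at Stage 2, overlapped between Stage 3+DMSO and Stage 2 and were higher with KPT. All 3 exons of FAM180A were lower at Stage 2, higher at Stage 3+DMSO and higher again with KPT. The exons of a gene share its libraries and are not replicates. The share of all exons that did not overlap was not computed, so nothing further is read from these exon counts. INMT at Stage 1 was less even, where the last exon held 56 of the 77 reads. The share of reads in that exon, as a mean over libraries, was 76.4% ± 14.2 at Stage 1 (SD, n = 3), against 50.0% ± 6.31 at Stage 2, 49.5% ± 2.01 with KPT and 49.1% ± 1.91 with DMSO.

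**Figure D4:**
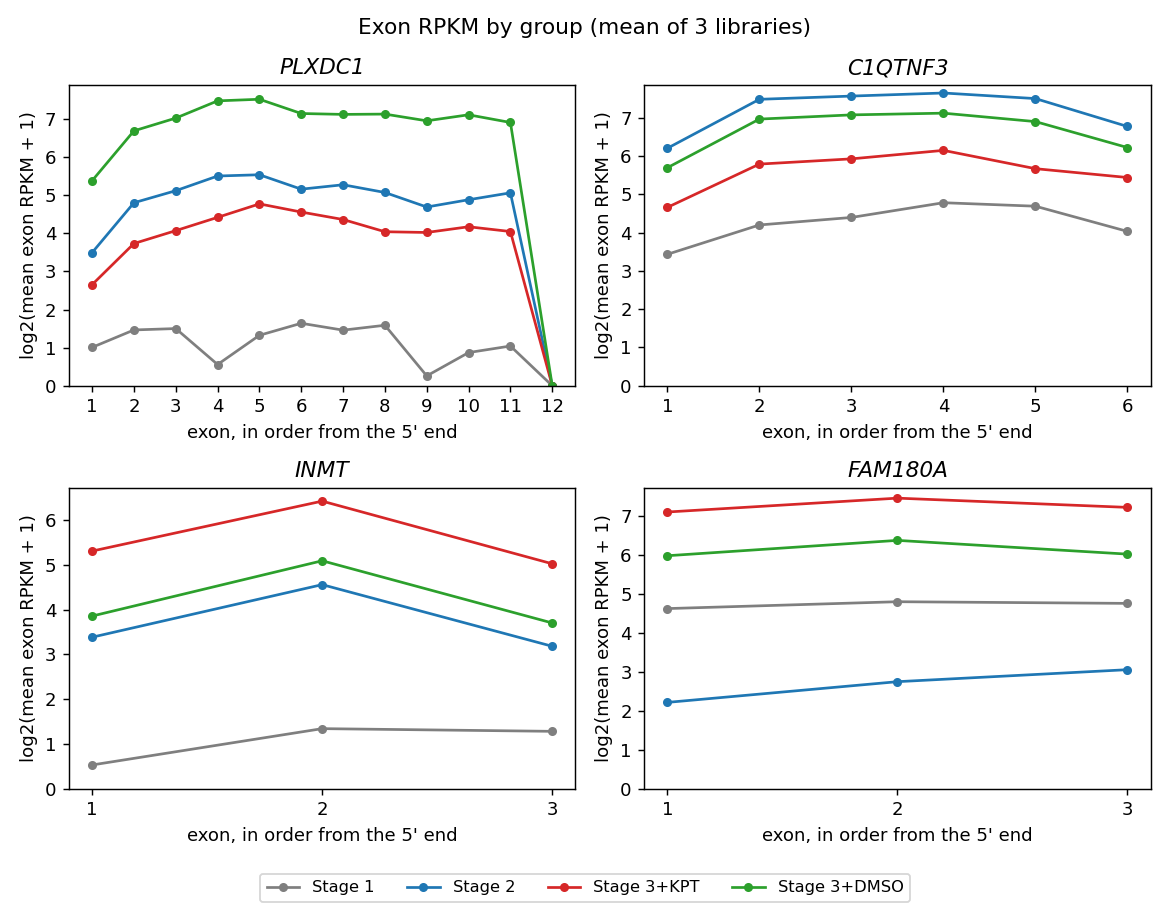
Mean RPKM of each exon as log2(mean RPKM + 1) (y axis) in order from the 5' end (x axis) for the 4 genes; lines are the means of 3 libraries of each group. The order of the groups is the same along each gene, except at the last PLXDC1 exon, where every group is at 0.

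Genes that rose as these 4 did give a scale for the KPT differences. Tested genes were sorted by whether they rose by at least 1 on the log2 scale at both steps, at Stage 2 only or at Stage 3+DMSO only. PLXDC1 was 1 of 26 genes that rose at both steps, and it had the largest total rise of them, followed among named genes by MATN2 and S100A1. The same class held ELN, the elastin gene, with a log2 difference of -3.91 between KPT and DMSO, MGP, an inhibitor of calcification, with 0.32, and POSTN, the matrix protein periostin, with 1.43. Of the 26, 7 were called higher and 16 called lower with KPT than with DMSO (limma), and 3 were not called. Their median log2 difference was -1.02, and 3 had a lower value than PLXDC1. C1QTNF3 and INMT were 2 of 224 genes that rose at Stage 2 only, with a median of -0.48. Of these, 40 were called higher and 116 called lower with KPT (limma). C1QTNF3 had 89 genes of that class below it, and INMT had 207. FAM180A was 1 of 462 genes that rose at Stage 3+DMSO only, with a median of -0.56, and 424 of them were below it. Of the 462, 92 were called higher and 246 called lower with KPT (limma). The other 12334 tested genes had a median of 0.04, with 31.2% called higher and 28.1% called lower (limma). The DMSO level enters both the sorting and the KPT difference, so a shift below 0 in these classes is not read further.

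**Figure D5:**
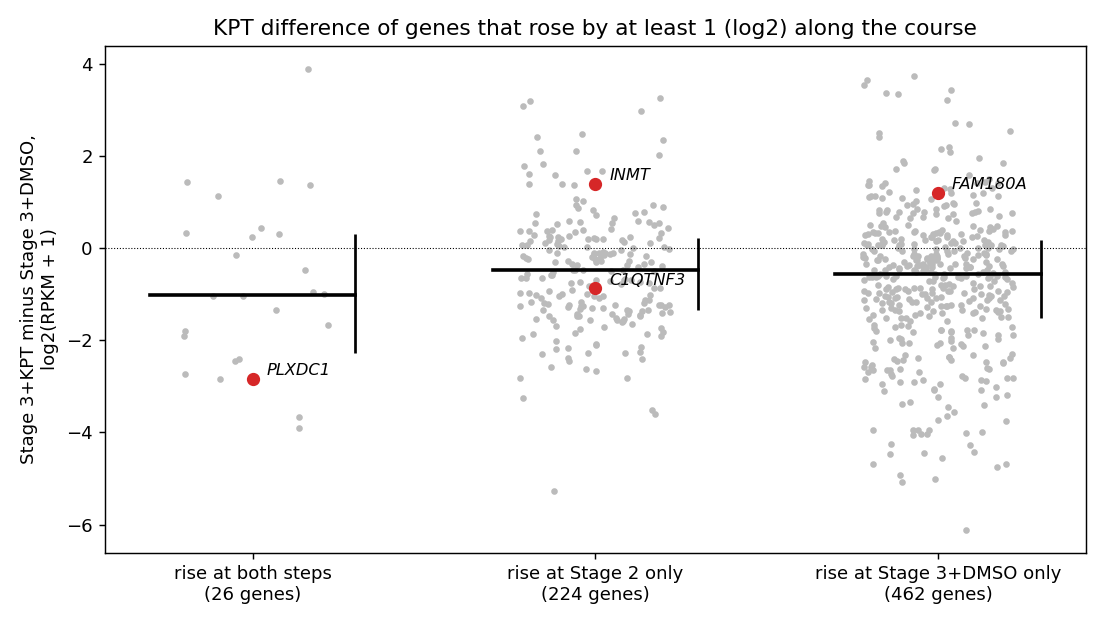
Stage 3+KPT minus Stage 3+DMSO in log2(RPKM + 1) (y axis) for genes that rose by at least 1 at both steps, at Stage 2 only or at Stage 3+DMSO only (x axis); grey points are genes, horizontal lines medians and vertical lines the middle quartiles. The medians are -1.02, -0.48 and -0.56; PLXDC1 (-2.83) and C1QTNF3 (-0.87) lie below the medians of their classes and INMT (1.40) and FAM180A (1.20) above theirs.

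The genes with the most similar course were taken by the Pearson correlation of log2(RPKM + 1) over the 12 libraries, which share 4 group levels, so these values are a description. For PLXDC1 they were GALNT10 (r = 0.988), PINK1, GAA, CORO2B and PODN, none of which spanned as wide a range. CORO2B, an actin-binding coronin, averaged 20.3 ± 0.749 RPKM with KPT and 58.3 ± 10.7 with DMSO, and 30.7 ± 2.87 at Stage 2 and 8.87 ± 1.06 at Stage 1. For C1QTNF3 they were its relative C1QTNF6 (r = 0.994), LZTS3, CST3, CYB5D2 and EGLN3. For INMT they were DNAJC1 (r = 0.973), ZFYVE9, CTSF, TMEM59 and PSMC2. For FAM180A they were the lysosomal protease gene LGMN (r = 0.992) with PPP1R8, DCAF11, RBM15B and ABHD2. ABHD2, a hydrolase gene, averaged 312 ± 7.53 RPKM with KPT and 172 ± 12.7 with DMSO, and 78.8 ± 1.93 at Stage 2 and 129.5 ± 2.88 at Stage 1, so it too dipped at Stage 2.

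The 4 genes did not follow each other closely. Over the 12 libraries PLXDC1 and C1QTNF3 correlated with r = 0.857, PLXDC1 and INMT with 0.640 and INMT and FAM180A with 0.532. Without the 3 KPT libraries, over 9, PLXDC1 and INMT stood at 0.949 and C1QTNF3 and INMT at 0.910. FAM180A correlated with PLXDC1 at 0.125 over 12 libraries and with C1QTNF3 at -0.266. These values rest on 4 group levels and are not read as relations between the genes.

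Nearby tested genes that do not overlap the 4 were compared with them. CACNB1, a calcium channel subunit 13.0 kb from PLXDC1, averaged 3.99 RPKM with KPT and 4.73 with DMSO, and 4.49 at Stage 2 and 4.38 at Stage 1. AMACR, an enzyme of branched fatty acid breakdown 9.70 kb from C1QTNF3, averaged 24.4 RPKM with KPT and 22.5 with DMSO, and 25.5 at Stage 2 and 19.1 at Stage 1. AMACR was higher at Stage 2 than at Stage 1, as C1QTNF3 was, by a smaller log2 difference of 0.40 (adjusted p = 0.0161, limma), and its difference of -0.17 between Stage 3+DMSO and Stage 2 did not pass (adjusted p = 0.255, limma). SLC13A4, a sulphate transporter 4.43 kb from FAM180A, stayed between 1.50 and 1.83 RPKM in all group means. None of these 3 passed between KPT and DMSO, with adjusted p of 0.179 for CACNB1, 0.442 for AMACR and 0.589 for SLC13A4 (limma). That threshold was passed by 60.0% of all tested genes. Farther from PLXDC1, the log2 differences between KPT and DMSO were -0.64 for RPL19, -0.90 for KPNB1 and 0.92 for NPEPPS. Farther from C1QTNF3 they were -0.56 for SLC45A2 and -0.95 for RAI14, and farther from FAM180A the difference was -0.25 for NUP205. Beyond FAM188B, which overlaps INMT, the nearest tested gene with a symbol was the glycyl-tRNA synthetase gene GARS, 33.5 kb away, which moved the opposite way with KPT, at 186 RPKM with KPT and 639.9 with DMSO (log2 difference -1.77, adjusted p = 1.13e-10, limma).

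Markers of resting fibroblasts, beside which INMT is often listed in connective tissue, were also counted. Of 21 listed genes 18 had a row and 14 were tested. At Stage 2 against Stage 1, 8 were higher, 1 was lower and 5 did not pass (limma), beside 16.3% higher and 24.4% lower of all tested genes. At Stage 3+DMSO against Stage 1, 12 were higher and 2 lower (limma), where 30.5% and 17.3% of tested genes were. With KPT against DMSO 4 were higher and 9 lower, beside 30.5% higher and 29.5% lower of all tested genes. GPX3, a secreted peroxidase, averaged 98.5 ± 13.7 RPKM with KPT and 8.88 ± 4.94 with DMSO, a log2 difference of 3.43 (adjusted p = 9.79e-08, limma). SFRP1, a secreted Wnt antagonist, averaged 1369.8 ± 8.22 RPKM with KPT and 572 ± 60.0 with DMSO, a log2 difference of 1.26 (adjusted p = 8.82e-09, limma). DPT, the matrix protein dermatopontin, averaged 43.8 ± 1.10 RPKM with KPT and 262 ± 54.2 with DMSO, a log2 difference of -2.53 (adjusted p = 1.23e-09, limma). C7 averaged 1.73 ± 0.431 RPKM with KPT and 12.4 ± 6.40 with DMSO, a log2 difference of -2.17 (adjusted p = 3.50e-05, limma). INMT and FAM180A were higher with KPT, as 4 of the list were, and PLXDC1 and C1QTNF3 were lower, as 9 were. A shared direction is not read as a grouping.

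Leukocyte markers were low in all groups. Of 8 listed, 3 were tested, and the summed RPKM of the list was 14.8 to 16.9 with KPT and 15.2 to 15.9 with DMSO. It was 13.5 to 15.4 at Stage 2 and 11.4 to 12.2 at Stage 1. Most of the sum at Stage 2 and Stage 3 was CD14, which averaged 10.7 RPKM with KPT, 12.1 with DMSO, 11.3 at Stage 2 and 5.99 at Stage 1. ITGB2 averaged 1.76 RPKM with KPT and 0.641 with DMSO, and CD68 averaged 2.91 and 2.53. PTPRC, the common leukocyte antigen, stayed below 0.01 RPKM in every group mean.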

How the data were processed

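Messenger RNA of 12 libraries was sequenced with the Illumina TruSeq Stranded mRNA kit from 500 ng of total RNA per library, per the labels' protocols. TopHat2 2.1.0 aligned the reads, as the submitters' processing notes list it; no source used here names the counter, build or annotation. RPKM values were deposited by the authors for 22861 genes and 189618 exons. Multiplied by union exon length and a recovered library total, 100% of values were whole reads within 0.0001 of a read; reads summed over genes were 23287593 to 43293744, more than the library totals, for a reason not given.

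Values of log2(RPKM + 1) were tested with limma 3.58.1 (R 4.3.3); this scale understates changes of low genes. All 12 libraries entered a fit with 4 group means and an expression trend, and p-values were Benjamini-Hochberg adjusted over 13046 genes with an RPKM of at least 1 in at least 3 libraries. Genes under 0.05 were called, and tests are two-sided. The method was tested on simulated data. The 4 genes and all lists were chosen with earlier results of these data known. Named besides them are up to 2 called genes in each direction of each list, the 5 most correlated genes of each and the 2 nearest on each side, of which some are left out for length; C1QTNF genes, NID1, NNMT, PNMT, ELN, MGP, POSTN, MATN2 and S100A1 and marker genes were named after their values were seen. Alternatives changed the pseudocount (0.1 or 0.5), the filter (none, or a minimum RPKM of 5), the scaling (median ratio or quantile), the fit (without trend, with the 2 groups alone, with quality weights, with a replicate block, or limma-voom on recovered reads) and the libraries, each left out in turn.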

Additional observations from a re-analysis of the deposited data

How the results depend on the processing

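All 12 KPT tests of PLXDC1, C1QTNF3, INMT and FAM180A kept their direction and their side of the threshold in each of 23 alternatives. That makes 276 of 276 results, which share the same libraries and are not independent. No step of the course changed sign in those alternatives. The step to Stage 2 depended on the scale for genes low at Stage 1. For PLXDC1 it was 4.29 with a pseudocount of 0.1, 3.95 with 0.5 and 4.37 with limma-voom on the recovered reads, and for INMT 3.11 with 0.1 and 3.12 with limma-voom. For FAM180A it was -1.60 with library quality weights and -1.91 with limma-voom. The second step of C1QTNF3 was -0.70 after median-ratio rescaling.

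The share of the log2 rise present with KPT also moved. For PLXDC1 it was 53.7% with a pseudocount of 0.1 and 54.6% with limma-voom. For C1QTNF3 it was 58.7% after median-ratio rescaling, 56.5% after quantile normalization and 59.3% to 62.7% when a library was left out. For INMT it was 139.8% and 143.9% with pseudocounts of 0.1 and 0.5, 141.9% with quality weights, 141.2% with limma-voom and 140.4% to 164.3% when a library was left out. For FAM180A it was 201.0% after rescaling, 186.1% with weights and 180.8% to 211.8% when a library was left out. The causes were not tested, and no share crossed 100% in these alternatives.

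Deviations of same-numbered libraries from their group means had correlations from -0.131 to 0.0748 over 18 pairs. In 9 of the 18 the own number gave the highest correlation, including every pair between KPT and DMSO and every pair between Stage 3+DMSO and Stage 1. Between KPT and DMSO the correlations were 0.0655, 0.0748 and 0.0334. With 3 libraries per group these values cannot decide whether the numbers pair the samples. With the replicate block the KPT difference from DMSO stayed at -2.83 for PLXDC1, -0.87 for C1QTNF3, 1.40 for INMT and 1.20 for FAM180A, and 7725 genes were called in place of 7831. The number of methyltransferase list genes called between KPT and DMSO was 5, and 8 without a filter or with quality weights. With a minimum RPKM of 5, called C1q-domain genes were 7 in place of 11 between KPT and Stage 2, and 5 in place of 8 between Stage 2 and Stage 1. Low reads at Stage 1 limit the fold changes of PLXDC1 and INMT there.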
